A study of Caenorhabditis elegans with 6 samples.

Results

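The flp and nlp genes of Caenorhabditis elegans encode the precursors of most of its neuropeptides. The flp genes make FMRFamide-like peptides, and the nlp genes make neuropeptide-like peptides of many other kinds. Members were taken by name, as every gene whose symbol starts with flp- or nlp- and a number. The genes nlp-24 to nlp-34, several of which are known as antimicrobial peptide genes of the epidermis, were left out. The rule found 91 of the 46778 gene IDs counted, 31 flp and 60 nlp genes, all protein coding. Of these, 85 had enough reads to be tested among 15950 genes in all, and 74 had a mean of at least 1 CPM, the unit used below for the share of a library's read pairs that a gene took, after TMM scaling of library size. The untested members were flp-23, nlp-19, nlp-22, nlp-39, nlp-70 and nlp-78.

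RNA was sequenced from whole worms harvested at the L4 stage, the last larval stage, after growth from L1 on one of a pair of bacterial diets. The groups were wild type on E. coli OP50, wild type on Microbacterium sp. JUb74, scav-4(unk59) on each diet and scav-4(unk49) on OP50, with 2 libraries each. E. coli OP50 is the usual laboratory food, JUb74 is described in the study's title as a source of branched-chain fatty acids, and scav-4 is related to the mammalian scavenger receptor CD36. The labels describe the lesion of neither allele. They do not state if paired libraries are separate cultures, so p-values measure the spread between libraries, which may be technical. Worms with unk49 fed JUb74 are not part of these results. In whole worms, fewer cells of a type and less RNA per cell cannot be told apart.

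Neuropeptides are cut out of larger precursors. In C. elegans the proprotein convertase EGL-3 cuts at basic residues, the carboxypeptidase EGL-21 trims them, amidating enzymes cap many of the peptides, and dense core vesicles carry them to release, which needs UNC-31. The released peptides act mostly on G protein-coupled receptors and are known for setting arousal, sleep at the moults, egg laying, feeding and fat use.

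Libraries held 21937088 to 22692632 read pairs in genes, so depth was nearly equal. The mutated gene scav-4 had 6.04 and 7.16 CPM in the unk49 libraries and 9.93 to 47.2 CPM in the others, and reads of scav-4 did not set the unk59 libraries apart. Oocyte and eggshell genes stood apart between groups. The summed level of all 16 was 124.8 and 130.2 CPM in wild type on OP50, 18.3 and 26.8 on JUb74, 27.3 and 37.9 in unk59 on OP50, 1952 and 3324 in unk59 on JUb74, and 7662 and 2730 CPM in unk49. Sums over 10 sperm genes were 29.4 and 30.5 CPM in wild type on OP50, 2.31 to 10.02 CPM in wild type on JUb74 and unk59 on OP50, and 83.5 to 175.9 CPM in the other groups. The 6 vitellogenin genes, which encode yolk proteins, summed to 4423 and 2058 CPM in wild type on OP50 and 23 and 5.35 CPM on JUb74. The unk59 libraries on OP50 stood apart from each other in these yolk genes, at 73.2 and 5410 CPM. The 17 moulting-cycle genes summed to 4769 to 7575 CPM in wild type on either diet and in unk59 on OP50, to 299.2 and 450.4 CPM in unk59 on JUb74, and to 1779 and 1314 CPM in unk49. No gene of these lists was at 0 in all libraries. Library 2 of wild type on JUb74 also stood apart, since it exceeded library 1 by at least 2-fold for 20 of the 74 members, and by up to 9.28-fold (nlp-64).

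Most neuropeptide RNA came from few genes. Per kilobase of exon, the level averaged over the 10 libraries was highest for nlp-20 at 606.8 CPM per kb, followed by nlp-36 at 530.6, nlp-40 at 524.2 and nlp-12 at 342.1. A wide step separated them from nlp-17 at 149.1, flp-15 at 137.9, flp-28 at 131.4, flp-24 at 99.7, flp-16 at 87.1 and flp-5 at 71.9 CPM per kb. The gene nlp-40, at bases 11495 to 16837 of chromosome I (WBcel235, plus strand), encodes a peptide released by the intestine that times defecation. Its level was 362.1 and 291.9 CPM in wild type on OP50, 401.4 and 351.3 on JUb74, 340.0 and 449.5 in unk59 on OP50, 397.4 and 325.6 on JUb74, and 341.2 and 482.0 in unk49. All 5 groups overlapped one another for nlp-40, and it passed the test in none of the 8 comparisons. The same held for nlp-36, whose libraries lay between 126.4 and 278.4 CPM.

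**Figure D1:**
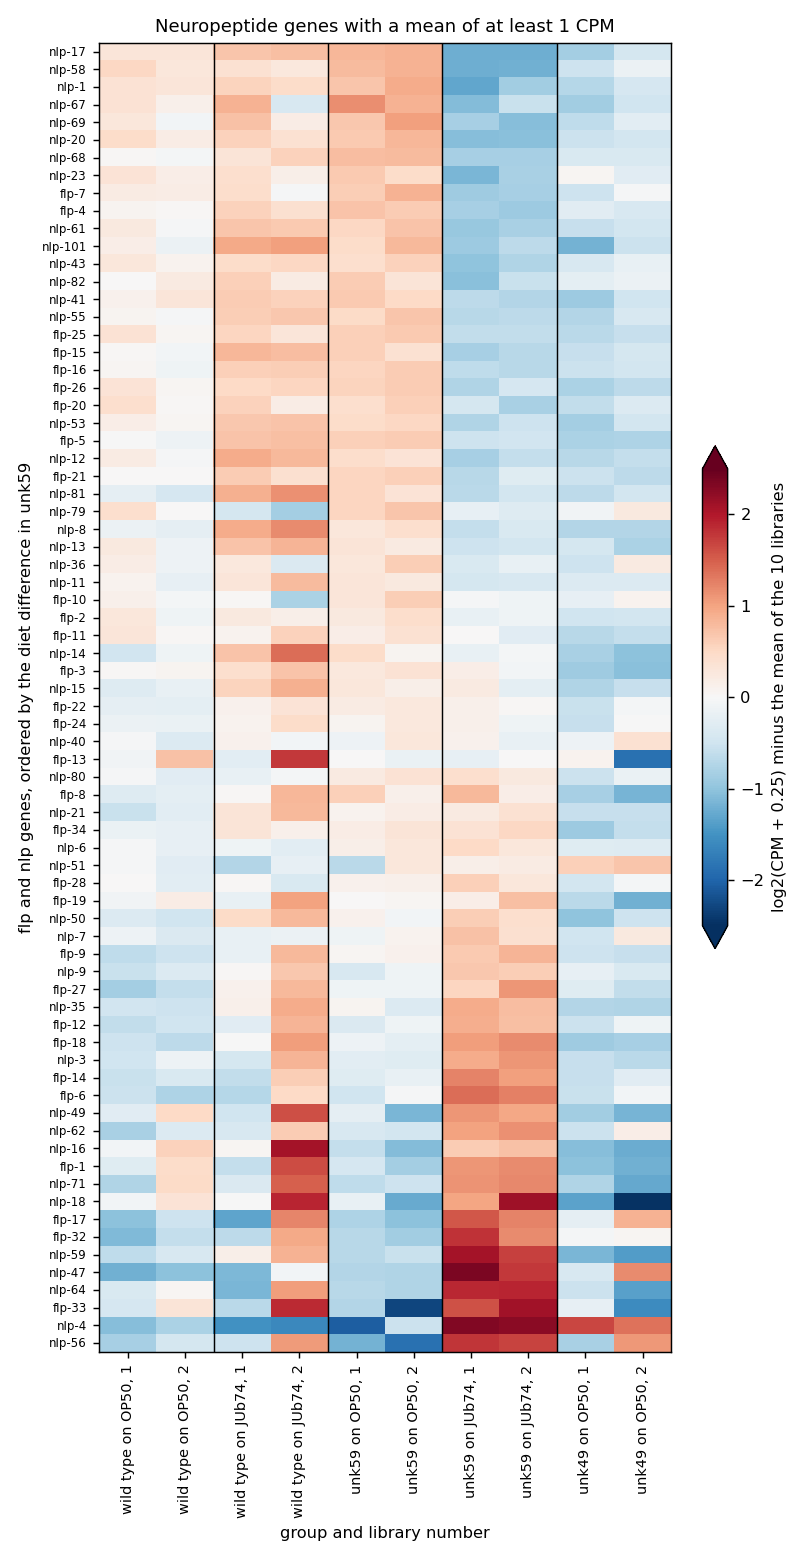
Each row is one of the 74 flp and nlp genes with a mean of at least 1 CPM, ordered by the diet difference in unk59, and each column is a library; colour is log2(CPM + 0.25) minus the mean of the 10 libraries, from blue (lower) to red (higher). Most rows in the top part are lowest in unk59 on JUb74 and those at the bottom are highest there, and library 2 of wild type on JUb74 is redder than library 1 in most of the bottom rows.

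The first comparison was the diet in wild type. On JUb74, 11 members rose and 0 fell by edgeR's quasi-likelihood test at an adjusted p of 0.05, while 8.94% of all genes tested passed, 2.65% higher and 6.29% lower. Over the 85 members the median log2 fold change was 0.63, with 76 above 0, and over all genes it was 0.00. The risers were nlp-14, nlp-81, flp-27, nlp-8, nlp-50, nlp-21, nlp-15, flp-15, flp-5, nlp-12 and flp-16, with log2 fold changes from 1.39 down to 0.64. In the same comparison all 16 oocyte genes had negative values and 7 fell (median -2.64), 5 of 10 sperm genes fell (median -3.79) and 5 of 6 vitellogenin genes fell (median -8.45). The part of these markers in the members' rise was not tested beyond the oocyte score described further on. Over 16 pan-neuronal genes, which all neurons express, the median was 0.40 and 3 of them (unc-10, sng-1 and unc-13) rose. With the counts scaled to these neuron genes, as described further on, 3 of the 11 rises passed.

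The gene nlp-8 is expressed in the ALA neuron, which drives sleep after stress. Its level was 19.1 and 18.2 CPM in wild type on OP50 and 40.3 and 48.2 CPM on JUb74, a log2 fold change of 1.25 (SE 0.180, edgeR adjusted p 0.0172). Both JUb74 libraries lay above every other library of the series. The gene nlp-14, an orcokinin-like precursor also linked to ALA and sleep, had 12.2 and 15.8 CPM on OP50 and 28.1 and 45.2 CPM on JUb74, a log2 fold change of 1.39 (SE 0.270, edgeR adjusted p 0.0238). The groups did not overlap, but the JUb74 libraries differed from each other more than the OP50 libraries did. The other orcokinin-like precursor, nlp-15, had 22 and 24.4 CPM on OP50 and 40.9 and 51.7 CPM on JUb74 and rose as well (edgeR adjusted p 0.0271). The gene nlp-81 had 9.72 and 8.46 CPM on OP50 and 21.4 and 25.5 CPM on JUb74.

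The most abundant riser was nlp-12, which encodes a cholecystokinin-like peptide of the DVA neuron that acts on locomotion. Its level was 158.9 and 134.6 CPM on OP50 and 263.1 and 243.2 CPM on JUb74, with a log2 fold change of 0.79 (SE 0.169, edgeR adjusted p 0.0274). Among its receptors, ckr-1 rose from 0.642 and 0.945 CPM to 2.31 and 3.57 CPM (log2 fold change 1.88, SE 0.481, edgeR adjusted p 0.0440). The receptor gene ckr-2, at 2.98 and 3.06 CPM and then 5.43 and 6.67 CPM, did not pass (edgeR adjusted p 0.0595). Without library 2 of JUb74, 0 members passed beside 27 of 16366 genes, and the members' median was 0.12 in place of 0.63. Without library 1 or 2 of OP50, 0 members passed beside 19 of 16476 and 13 of 16484 genes, and the median was 0.52 and 0.57. Without library 1 of JUb74, 10 members passed, 5 of them among the 11, beside 472 of 16463 genes, with a median of 0.76.

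**Figure D2:**
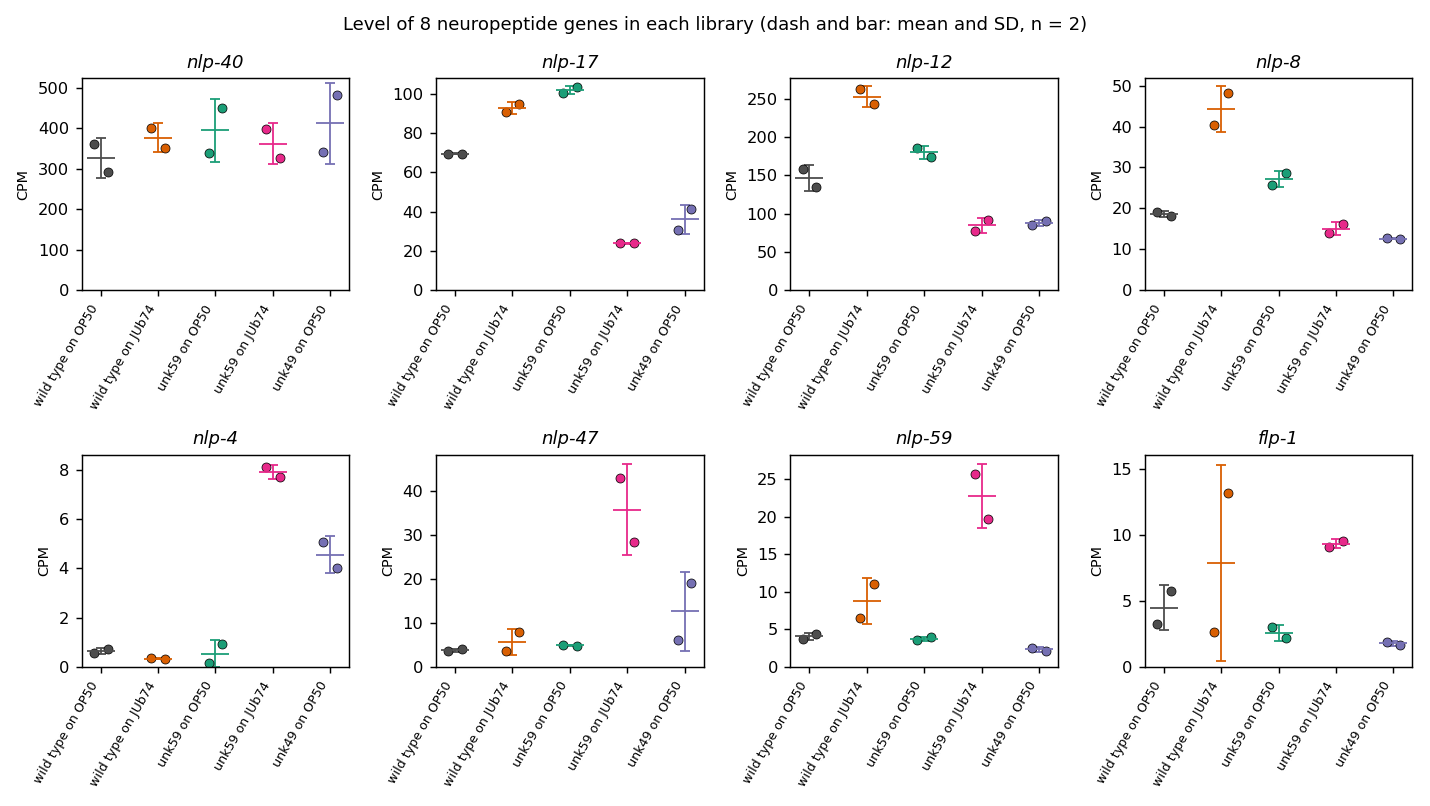
Each panel gives the CPM of one gene in every library (points) by group, with the group mean and SD (dash and bar, n = 2). nlp-40 overlaps between groups, nlp-17 and nlp-12 are low in unk59 on JUb74 and in unk49, nlp-8 is highest in wild type on JUb74, nlp-4 and nlp-47 are highest in unk59 on JUb74, and the wild-type libraries on JUb74 disagree for flp-1.

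In unk59, members were called in both directions. On JUb74, 29 rose and 30 fell, beside 59.8% of all genes passing, 33.5% higher and 26.3% lower. The share of members called was thus near the background, and the median log2 fold change was 0.04 against 0.08 over all genes. Among members with a mean of at least 1 CPM whose libraries did not overlap between the diets, the largest falls were those of nlp-17, nlp-58, nlp-1, nlp-67, nlp-69, nlp-20, nlp-68, nlp-23, flp-7 and flp-4, from -2.09 to -1.56. The largest rises were those of nlp-56, nlp-4, flp-33, nlp-64, nlp-47, nlp-59, flp-32, flp-17, nlp-18 and nlp-71, from 4.29 down to 1.97. In wild type on OP50, libraries that this comparison does not use, the risers had a median level of 2.89 CPM per kb and the fallers 28.9 CPM per kb. The fallers included 6 of the 10 members highest per kilobase, and the risers none of them. This contrast is partly set by the read filter, which passes a gene low in wild type on OP50 only if other libraries hold more reads. With at least 10 reads required in every library, 20 members rose and 29 fell, of 68 tested, beside 3171 and 3023 of 11570 genes. The same levels over all genes are not given here.

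The largest of these falls was that of nlp-17, on the minus strand of chromosome IV from 13505270 to 13505762. Its level was 100.2 and 103.1 CPM in unk59 on OP50 and 23.9 and 23.8 CPM on JUb74, a log2 fold change of -2.09 (SE 0.178, edgeR adjusted p 5.09e-05). The gene nlp-20, the highest per kilobase, went from 410.0 and 468.4 CPM to 125.3 and 126.9 CPM, a log2 fold change of -1.80 (SE 0.176, edgeR adjusted p 7.69e-05). The gene nlp-1, known from the AWC olfactory neurons for olfactory adaptation, went from 39.2 and 46.0 CPM to 9.63 and 13.1 CPM. For these genes both JUb74 libraries of unk59 were the lowest of the series. The gene flp-7, whose peptides released by the ASI neurons promote fat loss in the intestine, had 30.2 and 35.6 CPM on OP50 and 10.4 and 10.8 CPM on JUb74, a log2 fold change of -1.64 (SE 0.239, edgeR adjusted p 0.000451).

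Among the risers, nlp-47 encodes a peptide related to gonadotropin-releasing and adipokinetic hormones. It had 4.82 and 4.77 CPM in unk59 on OP50 and 43.0 and 28.4 CPM on JUb74, a log2 fold change of 2.89 (SE 0.536, edgeR adjusted p 0.00155). The gene nlp-59 went from 3.5 and 3.91 CPM to 25.7 and 19.7 CPM (log2 fold change 2.61, SE 0.312, edgeR adjusted p 0.000174), and nlp-4 from 0.152 and 0.907 CPM to 8.13 and 7.72 CPM (log2 fold change 3.87, SE 0.561, edgeR adjusted p 0.000435). In each case both unk59 libraries on JUb74 were the highest of the series. The allatostatin-A-like gene nlp-5 had 1 and 2 reads on OP50 and 56 and 64 reads on JUb74, a ratio of pooled rates of 34.1 with an exact 95% Clopper-Pearson counting interval of 11.4 to 168.0, which covers counting error only.

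Several other risers were as high in library 2 of wild type on JUb74 as in unk59. The gene flp-1, expressed in the AVK interneurons, had 2.99 and 2.15 CPM in unk59 on OP50 and 9.08 and 9.57 CPM on JUb74 (log2 fold change 1.86, SE 0.630, edgeR adjusted p 0.0289), but 2.6 and 13.2 CPM in wild type on JUb74. The gene nlp-49, whose peptide acts through the receptor SEB-3 in arousal, had 5.53 and 2.82 CPM and then 14.2 and 12.9 CPM in unk59, and 4.52 and 20.3 CPM in wild type on JUb74. The gene flp-33 had 0.913 and 0.143 CPM and then 5.52 and 8.01 CPM in unk59, and 0.961 and 6.75 CPM in wild type on JUb74. For each, library 2 of wild type lay above both OP50 libraries of either genotype and library 1 lay within their range. None of these genes passed the diet test in wild type or the interaction, and the flp-33 call in unk59 held in 2 of the 4 fits that left out a library. The touch receptor neuron gene flp-20 moved the other way, from 21.2 and 24.1 CPM to 11.6 and 8.83 CPM in unk59, a fall that did not pass under pan-neuronal scaling (edgeR adjusted p 0.152), and its wild-type libraries overlapped between diets.

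Whether the diet difference depended on the genotype was tested as an interaction, the diet difference in unk59 minus that in wild type. It was positive for 4 members (nlp-5, nlp-4, nlp-47 and nlp-59) and negative for 31, beside 43.3% of all genes, 23.3% higher and 20% lower. Members had a median of -0.58, all genes of 0.00 and the pan-neuronal genes of -1.20. Without library 2 of wild type on JUb74, 18 members were positive and 30 negative, beside 6439 of 16366 genes. Of the 11 members that rose in wild type, 8 had a negative interaction, 6 of these (flp-5, flp-15, flp-16, nlp-8, nlp-12 and nlp-81) also fell in unk59, and flp-27 rose in both genotypes. Under pan-neuronal scaling only nlp-8 and nlp-81 of these 6 kept the rise, only flp-15 and flp-16 kept the fall, and none kept both. The same share over all genes is not given here. For nlp-8 the interaction was -2.10 (SE 0.254, edgeR adjusted p 0.000285), from 25.8 and 28.5 CPM to 13.9 and 16.2 CPM in unk59 against the rise in wild type. For nlp-4 it was 4.87 (SE 0.859, edgeR adjusted p 0.00170), with 0.550 and 0.720 CPM in wild type on OP50 and 0.336 and 0.297 CPM on JUb74. The positive calls of nlp-47 and nlp-59 did not hold in every fit that left out a library. Their interaction values in those fits were 1.82 to 3.06 and 1.17 to 2.05. That of nlp-5 rests on few reads.

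**Figure D3:**
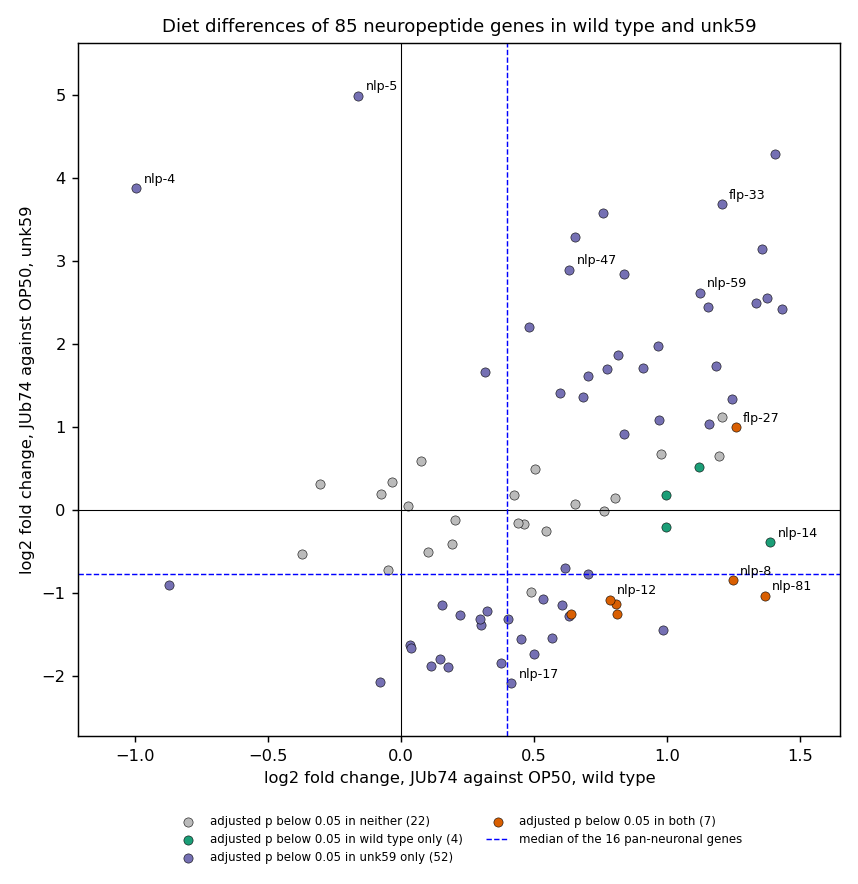
Each point is one of the 85 members tested, by its log2 fold change on JUb74 against OP50 in wild type (horizontal) and in unk59 (vertical), coloured by where the adjusted p was below 0.05; dashed lines mark the medians of the 16 pan-neuronal genes. Most points lie right of 0, while on the vertical axis they lie both above and below 0.

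On OP50, unk59 and wild type were not told apart at the level of single members. No member passed edgeR's test (0.0125% of all genes did). The unadjusted edgeR p was below 0.05 for 23 of 85 members, beside 1845 of 15950 genes. DESeq2 called 2 of 82 members, each higher, beside 434 of 15477 genes, 417 of them lower. The median log2 fold change was 0.38 over members, with 69 of 85 above 0, and 0.25 over the pan-neuronal genes. Over all genes it was 0.04, with 8681 of 15950 above 0. Under pan-neuronal scaling the members' median was 0.15. The unadjusted edgeR p was then below 0.05 for 2 members, beside 2053 of 15950 genes. Under whole-library scaling all 16 oocyte genes were below 0 (median -2.0, 13 with an unadjusted edgeR p below 0.05). All 10 sperm genes were below 0 as well (median -1.57), and none of these genes passed the adjusted test. The values of nlp-81, 16.7 and 14.7 CPM in unk59 against 9.72 and 8.46 CPM in wild type, did not overlap but gave an edgeR adjusted p of 0.214.

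Between the genotypes fed JUb74, 43 members were called, 12 higher and 31 lower in unk59, beside 59% of all genes, 33% higher and 26.1% lower. Both this comparison and the diet in unk59 use the unk59 libraries on JUb74. The members lower in unk59 included nlp-17 at a log2 fold change of -1.96, nlp-101 at -1.81 and nlp-81 at -1.62. Those higher included nlp-4 at 4.62, nlp-47 at 2.64, nlp-59 at 1.37 and flp-6 at 1.33. Of these, flp-6 had 3.99 and 9.6 CPM in wild type and 18.1 and 16.3 CPM in unk59, and its call held in 1 of the 4 fits that left out a library. Without library 2 of wild type on JUb74, 24 members were higher and 30 lower, beside 8497 of 16366 genes.

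The allele unk49 was compared with wild type on OP50, where unk59 had no called member. In unk49, 3 members rose (nlp-4, nlp-2 and nlp-47) and 23 fell, beside 46.3% of all genes, 27.2% higher and 19.1% lower; under pan-neuronal scaling the 3 rises passed and none of the falls did. Members had a median log2 fold change of -0.46, all genes of 0.11 and the pan-neuronal genes of -0.89. The gene nlp-17 had 30.8 and 41.1 CPM in unk49 against 69.5 and 69.4 CPM in wild type (log2 fold change -0.95, SE 0.173, edgeR adjusted p 0.00249). The gene nlp-20 had 180.5 and 190.3 CPM against 362.4 and 298.7 CPM, and flp-3 had 3.34 and 3.01 CPM against 6.55 and 6.75 CPM. In these genes the groups did not overlap. The gene flp-11, the main sleep-promoting peptide gene of the RIS neuron, had 11.5 and 12.2 CPM against 23.1 and 19 CPM (log2 fold change -0.83, SE 0.230, edgeR adjusted p 0.0161).

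Of the rises, nlp-4 had 5.10 and 4.02 CPM in unk49 (log2 fold change 2.83, SE 0.542, edgeR adjusted p 0.00314). The gene nlp-47 had 6.13 and 19 CPM against 3.44 and 3.92 CPM in wild type (log2 fold change 1.77, SE 0.526, edgeR adjusted p 0.0218), and the unk49 libraries lay far apart in it; it passed in 1 of the 4 fits that left out a library, and without unk49 library 2 its log2 fold change was 0.66. The gene nlp-2 rests on few reads, 13 and 26 in unk49 against 4 and 2. Without library 1 of wild type on OP50, 6 members passed in place of 26, beside 4141 of 16476 genes, and without library 2, 12 passed, beside 4292 of 16484 genes. The members' median was then -0.38 and -0.45. Against unk59 on OP50, 4 members were higher in unk49 (nlp-4, nlp-5, nlp-56 and nlp-47) and 39 lower, beside 54% of all genes, 30.2% higher and 23.8% lower. Of these rises, those of nlp-47 and nlp-56 did not pass in every fit that left out a library. Their log2 fold changes in those fits were 0.37 to 1.94 and 1.25 to 3.84. For nlp-5 the pooled counts were 20 reads in unk49 and 3 in unk59.

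The diet difference in unk59 and the difference of unk49 from wild type on OP50 share no library. Members lower in both numbered 19, which is 63.3% of the 30 falls in unk59 and 82.6% of the 23 in unk49. Over all genes tested, 2336 were lower in both, 55.6% of the falls in unk59 and 76.7% of those in unk49, so the members' shares lay near the background. Among them were nlp-17, nlp-20, nlp-1, nlp-8, nlp-12, flp-5, flp-15 and flp-16. The 3 rises of unk49 were all among the 29 rises of unk59, whereas 25 of those 29 were not called in unk49. Shared rises were thus 10.3% of the members' rises in unk59, against 64.3% over all genes, a difference that was not tested. The gene nlp-18 rose in unk59 on JUb74 (5.91 and 13.2 CPM against 2.49 and 1.05) and fell in unk49 (0.985 and 0.309 CPM against 2.7 and 3.69 in wild type), and the fall passed in 0 of the 4 fits that left out a library.

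**Figure D4:**
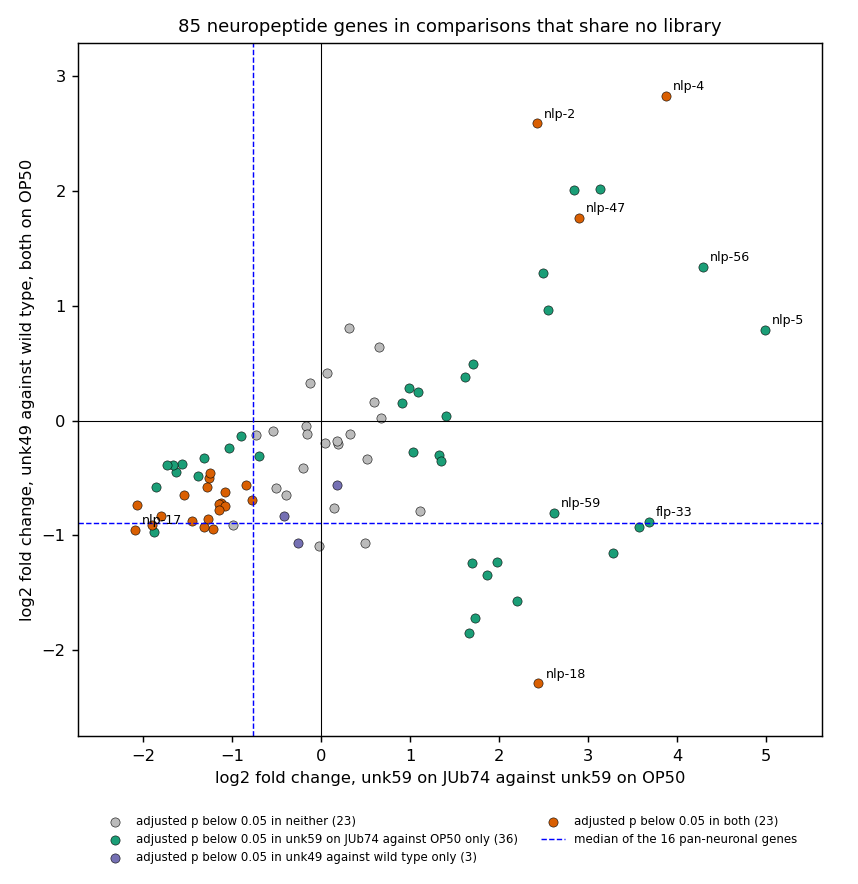
Each point is one of the 85 members tested, by its log2 fold change in unk59 on JUb74 against OP50 (horizontal) and in unk49 against wild type on OP50 (vertical), coloured by where the adjusted p was below 0.05; dashed lines mark the pan-neuronal medians. The 19 members lower in both lie together at the lower left, and the members higher in unk59 spread from 2.83 to -2.29 on the vertical axis.

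A direct comparison of the groups rich in oocyte RNA, unk59 on JUb74 against unk49 on OP50, was added after those values were seen. It differs in both allele and diet. It called 28 members higher in unk59 on JUb74 and 3 lower (flp-4, nlp-17 and nlp-58), beside 17% of all genes, 8.54% higher and 8.46% lower. The gene nlp-59 had 25.7 and 19.7 CPM against 2.53 and 2.08 CPM (log2 fold change 3.30, SE 0.323, edgeR adjusted p 0.000885), and flp-18 had 11.6 and 12.8 CPM against 2.87 and 3.01 CPM (log2 fold change 2.05, SE 0.347, edgeR adjusted p 0.00529). No libraries of these groups overlapped for either gene. All 4 fits that left out a library kept both calls. The oocyte genes had 0 calls in this comparison, but 14 of 16 were below 0 (median -1.25, 12 with an unadjusted edgeR p below 0.05). Of the 17 moulting-cycle genes, 13 were lower in unk59 on JUb74. Without library 1 or 2 of unk59 on JUb74, 6 and 9 members passed, beside 625 of 16423 and 1250 of 16359 genes, and without library 1 of unk49, 7 passed, beside 1150 of 16444 genes. The members' median stayed between 0.59 and 0.75 in these fits.

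Genes of peptides with related functions had different calls. Of the sleep peptide genes, nlp-8 and nlp-14 rose on JUb74 in wild type and nlp-8 fell in unk59, flp-11 was lower in unk49 than in wild type and than in unk59 on OP50 and passed in no other comparison, and flp-13, the gene of another ALA peptide, passed in none of the 8 comparisons. Its libraries in wild type on JUb74 held 1.59 and 7.30 CPM. The gene nlp-22, a sleep peptide gene of the RIA neuron, had 0 to 5 reads per library and was not tested. Under pan-neuronal scaling the nlp-8 fall in unk59 and the flp-11 falls in unk49 did not pass.

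The egg-laying peptides also differed. The gene nlp-3, which stimulates egg laying, rose in unk59 on JUb74 from 3.96 and 3.87 CPM to 9.38 and 10.6 CPM (log2 fold change 1.35, SE 0.401, edgeR adjusted p 0.0163). The gene nlp-7, which inhibits it, had 14.5 and 16.7 CPM on OP50 and 26.2 and 20.6 CPM on JUb74, with an edgeR adjusted p of 0.0816 for the diet, and was higher than in wild type on JUb74 (log2 fold change 0.75, edgeR adjusted p 0.0345), a call that held in 1 of the 4 fits that left out a library. The inhibitory flp-17, made in the BAG neurons, rose from 1.57 and 1.29 CPM to 8.95 and 7.18 CPM (log2 fold change 2.49, SE 0.759, edgeR adjusted p 0.0182), while wild type on JUb74 held 1.01 and 7.09 CPM. The flp-17 call held in 0 of the 4 fits that left out a library, with log2 fold changes of 2.32 to 2.64. The gene flp-10, whose peptide shares the receptor EGL-6 with flp-17 peptides, passed in no comparison and lay between 25.6 and 68.0 CPM. The receptor gene egl-6 passed in none either.

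The ligands of NPR-1, a receptor that sets social feeding, were called in opposite directions in unk59, though under pan-neuronal scaling flp-18 passed (edgeR adjusted p 0.000909) and flp-21 did not (log2 fold change -0.35, edgeR adjusted p 0.265). The gene flp-18 rose on JUb74 (5.07 and 4.63 CPM to 11.6 and 12.8 CPM, log2 fold change 1.33, SE 0.337, edgeR adjusted p 0.00777). The gene flp-21 fell (15.4 and 15.9 CPM to 6.38 and 8.42 CPM, log2 fold change -1.08, SE 0.220, edgeR adjusted p 0.00259). The receptor gene npr-1 fell by 1.66 (SE 0.429, edgeR adjusted p 0.00861), from 1.88 and 1.57 CPM to 0.385 and 0.698 CPM. Each group pair was free of overlap in these 3 genes.

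Under whole-library scaling, the genes that make and release the peptides were called mostly one way in each comparison. Of 11 peptide processing genes, 2 rose (18.2%) and 0 fell on JUb74 in wild type, beside 2.65% of all genes higher and 6.29% lower. Under pan-neuronal scaling 0 were called, beside 19.4% of all genes. In unk59 on JUb74 0 rose and 7 fell (63.6%), beside 33.5% of all genes higher and 26.3% lower. Under pan-neuronal scaling 1 rose and 2 fell, 27.3% called beside 62.3% of all genes. In unk49 against wild type 0 rose and 7 fell (63.6%), beside 27.2% of all genes higher and 19.1% lower. Under pan-neuronal scaling 2 rose (18.2%) and 0 fell, beside 53.5% of all genes higher and 3.97% lower. The convertase gene egl-3 had 166.3 and 176.3 CPM in wild type on OP50, 266.5 and 300.6 on JUb74, 247.4 and 230.8 in unk59 on OP50, 86.6 and 98.3 on JUb74, and 110.1 and 98.9 in unk49. Its diet difference was 0.73 in wild type (SE 0.163, edgeR adjusted p 0.0308) and -1.37 in unk59 (SE 0.165, edgeR adjusted p 0.000183). The trimming enzyme gene egl-21 fell by 1.21 on the log2 scale in unk59 and the amidation gene pghm-1 fell by 1.09, and pghm-1 rose by 0.69 in wild type.

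Of the 11 dense core vesicle genes, 1 rose in wild type on JUb74 (unc-31), 9.09% beside 2.65% of all genes higher. In unk59 6 fell, 54.5% beside 26.3% of all genes lower. In unk49 5 fell, 45.5% beside 19.1% of all genes lower, and eipr-1 rose. Under pan-neuronal scaling 0 were called in wild type, beside 19.4% of all genes. With that scaling 2 rose and 1 fell in unk59, 27.3% called beside 62.3% of all genes. In unk49 1 rose and 0 fell with it, 9.09% called beside 57.4% of all genes. The vesicle membrane gene ida-1 had 229.4 and 219.0 CPM in unk59 on OP50 and 83.0 and 76.1 CPM on JUb74 (log2 fold change -1.49, SE 0.158, edgeR adjusted p 0.000102). Of the 16 pan-neuronal genes, 9 fell in unk59 on JUb74 and 0 rose, 56.2% beside 26.3% of all genes lower. In unk49 11 fell and 1 rose, 68.8% lower beside 19.1% of all genes. The 16 genes summed to 583.9 and 532.4 CPM in unk49, 700.6 and 631.4 in unk59 on JUb74, and 764.4 to 1031 CPM in the other groups.

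Neuropeptide receptor genes were mostly weakly expressed, with 93 of 102 tested. On JUb74 4 rose in wild type (dmsr-12, npr-14, npr-17 and ckr-1) and 0 fell, 4.3% called beside 8.94% of all genes, 2.65% higher and 6.29% lower. The wild-type libraries on JUb74 lay apart for dmsr-12, at 0.529 and 3.01 CPM, against 0.275 and 0.09 CPM on OP50. Levels of npr-14 were low, at 0.092 and 0.135 CPM on OP50 and 0.48 and 1.02 CPM on JUb74. In unk59 9 rose (9.68%) and 25 fell (26.9%), beside 33.5% of all genes higher and 26.3% lower. Under pan-neuronal scaling 27 rose (29.0%) and 6 fell (6.45%), beside 51.7% of all genes higher and 10.6% lower. In unk49 against wild type 2 rose (2.15%) and 12 fell (12.9%), beside 27.2% of all genes higher and 19.1% lower. Under pan-neuronal scaling 17 rose (18.3%) and 0 fell, beside 53.5% of all genes higher and 3.97% lower. The gene dmsr-12 had 0.355 and 0.239 CPM in unk59 on OP50 and 19.3 and 18.8 CPM on JUb74, and dmsr-11 had 0.355 and 0.239 CPM and then 2.44 and 2.67 CPM. All other libraries of dmsr-12 lay at or below 3.01 CPM. Of 5 peptide genes with other names, pdf-1, which encodes a pigment-dispersing factor that acts on locomotion, rose in wild type from 26 and 27.1 CPM to 79.9 and 111.1 CPM (log2 fold change 1.84, SE 0.213, edgeR adjusted p 0.00698), and snet-1 rose too.

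Because neuron genes shifted against whole-worm RNA, the counts were also scaled so that the median of the 16 pan-neuronal genes was level. Other somatic lists shifted too. In unk59 on JUb74 the median was -0.92 over 8 intestine genes (6 lower, 1 higher) and -1.19 over 8 body wall muscle genes (5 lower), against -0.77 over the pan-neuronal genes, and in unk49 against wild type it was -0.22 and -0.98 against -0.89. Under pan-neuronal scaling the median of all genes shifted by -0.47 in the wild-type diet comparison and by up to 1.19 in the interaction, and the share of genes called ranged from 0.0502% to 67.9%. In wild type 3 members were higher on JUb74 (nlp-8, nlp-14 and nlp-81) and 1 lower, beside 19.4% of all genes, 0.897% higher and 18.5% lower. In unk59 41 were higher and 16 lower, beside 62.3% of all genes, 51.7% higher and 10.6% lower, and these held all 29 rises and 16 of the 30 falls named under whole-library scaling. The gene nlp-17 was then still 1.38 lower on the log2 scale (edgeR adjusted p 0.000265), while nlp-8 was at -0.13 (edgeR adjusted p 0.642).

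In unk49 against wild type, pan-neuronal scaling left 0 of the 23 falls, turned the sign of 13 of them, and put 21 members higher, beside 57.4% of all genes, 53.5% higher and 3.97% lower, among them nlp-4, nlp-2 and nlp-47. Against unk59 on OP50, 0 of the 39 falls stayed, 17 turned sign and 15 members were higher, beside 63.3% of all genes, 60.4% higher and 2.88% lower. On JUb74, unk59 had 39 members higher and 10 lower than wild type, beside 67.9% of all genes, 59.3% higher and 8.63% lower. The interaction was positive for 25 and negative for 12, beside 58% of all genes, 52.5% higher and 5.47% lower. The comparison of unk59 on JUb74 with unk49 had 18 higher and 9 lower, beside 27.6%, 5.92% higher and 21.6% lower. On OP50 0 members separated unk59 from wild type under either scaling, beside 0.0502% of all genes. The genes nlp-4 and nlp-47 rose under both scalings in unk59 on JUb74 and in unk49. A model with an oocyte score as covariate called 0 members in the 7 planned comparisons, where it called 0 to 622 of 15950 genes, and 9 in the added one, where it called 953. The members' median under it was 0.56 for the diet in wild type, -0.34 for the diet in unk59 and in unk49 against wild type, -0.86 in unk49 against unk59 and -0.91 in the interaction. The score runs with the groups, so oocyte content and group cannot be told apart. The part of the moulting-cycle genes in these differences was not tested.

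**Figure D5:**
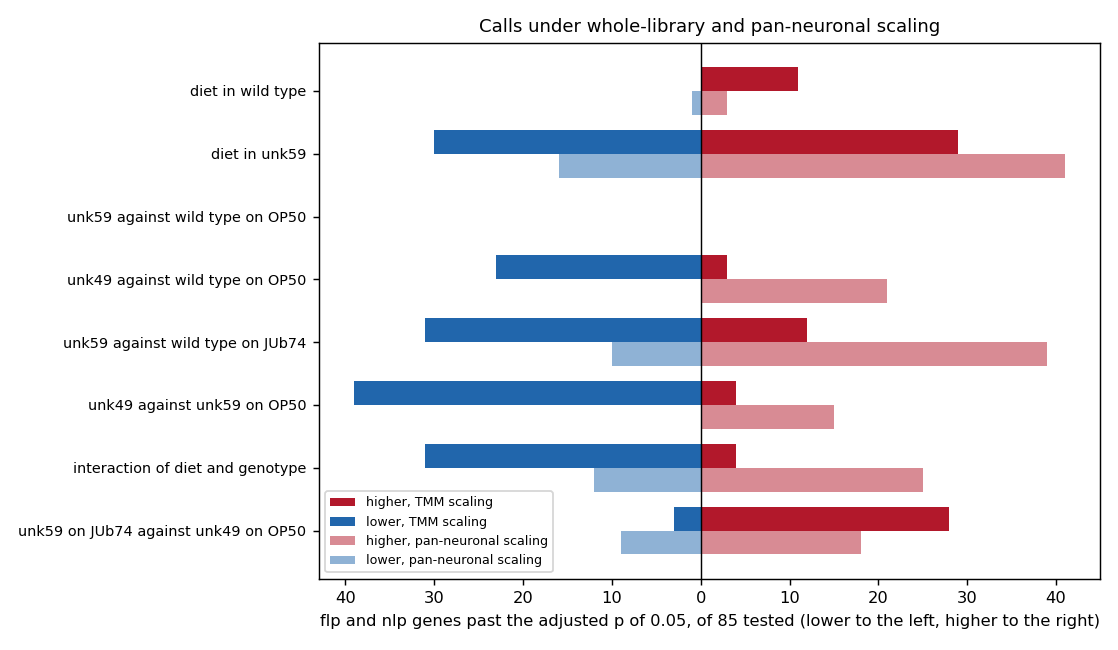
Bars count the flp and nlp genes, of 85 tested, past an adjusted p of 0.05 in each comparison, lower to the left and higher to the right, under whole-library TMM scaling (dark) and pan-neuronal scaling (pale). In both unk49 comparisons the 23 and 39 falls under TMM scaling become 0 falls, with 21 and 15 rises.

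By position, chromosome X held 32 members, 35.2% of them, against 14.1% of the genes tested. In unk49 against wild type the 30 tested members on X had a median log2 fold change of -0.74 and the 55 on the other chromosomes -0.33, a difference that was not tested. The gap was narrower in every other comparison. On X and elsewhere the medians were -0.97 and -0.64 in unk49 against unk59, and -0.06 and 0.04 for the diet in unk59. They were -0.2 and -0.14 between genotypes on JUb74 and -0.61 and -0.54 in the interaction. Medians over all genes on X are not given here. Neighbouring members lay within 10 kb of each other in 5 pairs, all on the minus strand of X. The genes flp-28, flp-3 and flp-2 span 10087314 to 10095245. In unk49 against wild type flp-3 fell, whereas flp-28 had 51.2 and 67.9 CPM against 71.0 and 58.3 CPM and overlapped. Elsewhere on X, nlp-22, nlp-23 and nlp-2, the RPamide precursors, span 2341359 to 2344766. On JUb74 in unk59, nlp-23 fell from 5.17 and 4.53 CPM to 1.33 and 1.72 CPM (log2 fold change -1.67, SE 0.307, edgeR adjusted p 0.0015), while nlp-2 rose from 7 and 1 reads to 22 and 30 (log2 fold change 2.42, SE 0.789, edgeR adjusted p 0.0243).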

How the data were processed

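For 5 samples of whole worms, the authors deposited 2 tables each of raw counts, giving for every gene the read pairs assigned to it. The submitters' processing notes name STAR 2.7.10, DESeq2 and the build WBcel235, and the annotation release is not given in the sources used here. The labels call the kit strand-specific, but the strand columns split gene reads evenly (medians of 49.8% to 50.1%), so the authors' unstranded counts were used and antisense partners cannot be told apart. Reads that overlapped several genes were not counted. The pair of tables of a group differed beyond sampling noise (chi-square per degree of freedom 19.8 to 88.9), so each was treated as a library. Left out was 1 count table that GEO ties to no sample.

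Symbols and coordinates came from the Ensembl 115 annotation of WBcel235. Counts were fitted in R 4.3.3 with edgeR 4.0.16 (TMM scaling, filterByExpr, 5 group means, robust quasi-likelihood, two-sided), with Benjamini-Hochberg adjustment over 15950 genes and a threshold of 0.05. The common biological coefficient of variation was 23.4%. The labels do not say that library numbers pair the samples, so they were not used as a block in the main model. Alternatives were the strand column, RLE, upper-quartile and pan-neuronal scaling, other filters, DESeq2 1.42.0, only the groups compared, an oocyte score, a replicate block and leaving out each library. The test was checked on simulated counts for the wild-type diet comparison only, with a small set of genes changed, as many up as down. The other genes had the same mean in all 5 groups. The check therefore does not cover comparisons in which a large share of genes moved. Members shared at least 10% of exon bases with another gene in 3 cases (nlp-35, nlp-46 and nlp-78). The members, gene lists and tests were chosen with earlier results of these data known. Named members were up to 10 rising and 10 falling per comparison by log2 fold change, with a mean of at least 1 CPM and no overlap between groups, the 10 highest per kilobase, and a list with described roles; flp-10 and nlp-2 were chosen after their values were seen.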

Additional observations from a re-analysis of the deposited data

Results flagged for a closer look

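The diet difference depended on the genotype by edgeR's interaction test for 35 members, 41.2% of the 85 tested, beside 43.3% of all genes. Of the members 4.71% were positive and 36.5% negative, beside 23.3% and 20% of all genes. The 29 called members that the rule for named genes takes are given here, with edgeR adjusted p from 0.000149 to 0.0334. Values are the log2 diet difference in unk59 minus that in wild type. It was positive for nlp-4 (4.87), nlp-5 (5.15, fitted on few reads), nlp-47 (2.26) and nlp-59 (1.49), and each of these had both unk59 libraries on JUb74 as the highest of the series. Among flp genes it was negative for flp-4 (-2.01), flp-5 (-1.94), flp-7 (-1.67), flp-15 (-2.08), flp-16 (-1.89), flp-20 (-1.30), flp-21 (-1.61), flp-25 (-1.49) and flp-26 (-1.54). Among nlp genes it was negative for nlp-1 (-2.08), nlp-8 (-2.10), nlp-12 (-1.87), nlp-14 (-1.78), nlp-15 (-1.20), nlp-17 (-2.51), nlp-20 (-1.95), nlp-23 (-1.70), nlp-41 (-1.72), nlp-58 (-2.0), nlp-61 (-2.11), nlp-67 (-1.99), nlp-68 (-2.23), nlp-69 (-2.23), nlp-81 (-2.40) and nlp-101 (-2.44). The positive calls of nlp-47 and nlp-59 did not hold in every fit that left out a library. Under pan-neuronal scaling 12 negative and 4 positive calls held, the positive ones being the same 4 genes. That scaling called 58% of all genes, 52.5% higher and 5.47% lower.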

How the results depend on the processing

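With an oocyte score as covariate, 0 members passed in the diet comparisons of wild type and unk59, in unk49 against wild type, in unk59 against wild type on JUb74, in unk49 against unk59 and in the interaction, and 9 passed in unk59 on JUb74 against unk49. That model called 0 to 622 of 15950 genes in these comparisons and 953 in the last, and the members' medians kept their sign except for the diet in unk59 (-0.34 against 0.04). Under that covariate 7 values turned sign: flp-33 to -1.43, nlp-18 to -3.76, nlp-64 to -0.32 and nlp-71 to -0.73 (diet in unk59), nlp-41 to 0.20 (unk49 against wild type), and nlp-41 to 0.22 and nlp-69 to 0.21 (unk49 against unk59). For the diet in wild type, DESeq2 called 19 members (18 higher), pan-neuronal scaling 4 and the replicate block 6, against 11. Over all genes tested, DESeq2 likewise called more than the main model, and the replicate block fewer. Pan-neuronal scaling called 19.4% of all genes against 8.94%, with 0.897% higher and 18.5% lower. DESeq2 called 2 members in unk59 against wild type on OP50, beside 434 of 15477 genes. In unk49 against unk59 pan-neuronal scaling called 15 members against 43, beside 10089 of 15950 genes against 8616. Leaving out 1 library gave 0 to 10 calls for the diet in wild type, 40 to 46 for the diet in unk59, 6 to 24 in unk49 against wild type, 35 to 54 in unk59 against wild type on JUb74, 34 to 39 in unk49 against unk59, 30 to 48 in the interaction and 6 to 22 in unk59 on JUb74 against unk49. Library numbers are not stated to pair samples, and same-numbered deviations correlated between -0.4 and 0.348, the highest between the wild-type diets. With the replicate block, members called were 56 for the diet in unk59, 21 in unk49 against wild type and 43 in unk59 against wild type on JUb74. They were 42 in unk49 against unk59, 36 in the interaction, 23 in unk59 on JUb74 against unk49 and 0 between unk59 and wild type on OP50. Over all 15950 genes the counts in that order were 9178, 6823, 9060, 8172, 6461, 1997 and 0. Among called values of members that the naming rule takes, 319 kept their call when 1 library was left out and 129 kept their direction but no longer passed. The cause of these shifts was not tested. Depth was nearly equal, and few reads limit members such as nlp-2 and nlp-5.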

Other observations

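Of the 74 members with a mean of at least 1 CPM, the group with the highest mean level was unk59 on JUb74 for 28, wild type on JUb74 for 23, unk59 on OP50 for 21, unk49 for 2 and wild type on OP50 for 0. The lowest was unk49 for 34, unk59 on JUb74 for 22, wild type on OP50 for 11, wild type on JUb74 for 4 and unk59 on OP50 for 3. Wild type on OP50 thus lay between the other groups for most members.

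The 20 members at least 2-fold higher in library 2 than in library 1 of wild type on JUb74 were mostly those called higher on JUb74 in unk59, a comparison that uses neither library. They held 17 such calls (85%), the exceptions being flp-9, flp-13 and flp-19, against 5 of the other 54 members (9.26%). The same share over all genes tested with a mean of at least 1 CPM was 1238 of 1466 (84.4%), against 2946 of 12002 (24.5%). Members differed from all genes in how many were in that set, 27% of members against 10.9% of genes. The cause was not tested.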
